A study of Schizosaccharomyces pombe with 6 samples.

Results

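The cytoskeleton, spindle and mitotic entry genes described here are for3, dad3, klp8 and nif1 of the fission yeast Schizosaccharomyces pombe, each read by 1 probe set, 4 of the 8960 probe sets other than controls on the array. Those 8960 cover both yeast species on the array, so no share of all probe sets below is a share of S. pombe genes. They were taken by gene symbol from the authors' deposited tables of differences between groups, so their differences on these same arrays chose them. In the comparison that lists for3 and dad3 the authors gave 132 probe sets, 35 of them with S. pombe identifiers. In the one that lists klp8 and nif1 they gave 60, of which 28 have S. pombe identifiers. RNA was measured on 6 Affymetrix Yeast Genome arrays in 3 groups of 2 arrays labelled as biological replicates, and so small a number of arrays sets the precision throughout. Cells of the first group overexpressed Spc1K49R, a form of Spc1 named for a lysine to arginine substitution, those of the second overexpressed Spc1, and those of the third carried the empty vector. The labels name the empty-vector cells as a wild strain and mark all 3 groups as transformed for overexpression. The promoter of the vector, the genotype beyond this, the medium and the time of expression are not stated in the labels. P-values of the model used here rest on the spread between arrays within groups, pooled over the 3 groups and moderated across probe sets. Nothing more is said of how the cultures were separated.

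The products of the 4 genes act where a rod-shaped cell decides where to grow and when to divide. For3 is a formin, which nucleates the actin cables that carry secretory cargo to the growing cell tips, and the GTPase Cdc42 releases it from autoinhibition. Dad3 is a subunit of the DASH complex, which couples kinetochores to spindle microtubules during mitosis. Klp8 is a kinesin-like protein, which the deposited annotation places at medial cortical nodes, cell tips and the spindle pole body. Nif1 inhibits Cdr1, a kinase that holds back the mitotic inhibitor Wee1, and so counts as a negative regulator of the step from G2 to mitosis. Spc1, also called Sty1, is the stress MAP kinase of this yeast and is known to link stress and nutrient signals to the timing of mitosis.

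Each value is a log2 signal from which the authors had subtracted the median of that probe set over all arrays, which keeps the differences between arrays and loses the level. The gene sty1 served as a check of the labels: it was at 1.20 and -1.37 on the Spc1K49R arrays and 1.04 and 1.49 on the Spc1 arrays, against -1.07 and -1.04 with empty vector. The array labelled Spc1K49R replicate 2 thus lay below both empty-vector arrays, against its label, and every Spc1K49R value below draws on it. RNA state also varied from array to array. The 5' minus 3' difference, averaged over 6 S. pombe control genes on the log2 scale, was 0.07 and 0.34 with Spc1K49R and -1.53 and -0.10 with Spc1, against -0.56 and 0.40 with empty vector. The SD of all tested values was 0.82 on Spc1 replicate 1 and 0.31 on empty vector replicate 1, whereas the remaining 4 arrays had 0.11 to 0.16.

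For the formin gene for3, listed by the authors for Spc1K49R against empty vector, the log2 values were 0.15 and 0.21 with Spc1K49R and -1.62 and 0.38 with Spc1, against -0.76 and -0.15 with empty vector. Both Spc1K49R arrays lay above both empty-vector arrays. The Spc1 arrays fell on either side of all others, 1 the lowest and 1 the highest of the 6. The group means were 0.18 ± 0.04 with Spc1K49R, -0.62 ± 1.41 with Spc1 and -0.46 ± 0.43 with empty vector (SD, n = 2 each).

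Set against empty vector, for3 was 1.56-fold higher with Spc1K49R, which is 0.64 on the log2 scale (SE 0.67, from a limma model of all 6 arrays). This contrast chose the gene, so the difference is given as a description. Most of that error came from the Spc1 arrays, since the model shares its spread among the groups: with only the 4 arrays of Spc1K49R and empty vector the standard error was 0.22. In the authors' deposited table for3 has a fold of 1.62 and an unadjusted p of 0.0457. The lower empty-vector array, replicate 1, has the more negative 5' minus 3' difference of the pair. Without it the difference was 0.34, and a fit with that 5' minus 3' value as a covariate gave 0.32; its part in the result was not tested beyond these values.

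The comparisons that did not choose for3 share arrays with the one that did, and in both its direction changed with the arrays kept. Spc1 minus empty vector was -0.16 (SE 0.67, 95% interval -1.88 to 1.56), with an adjusted p of 0.947 by limma over all 8960 probe sets. Without Spc1 replicate 1 it was 0.84, without empty vector replicate 2 it was 0.15, and without Spc1 replicate 2 it was -1.16, with an adjusted p of 0.0377 by limma in a range of 0.0377 to 1 over the 14 alternatives. Spc1K49R minus Spc1 was 0.80 (SE 0.67, adjusted p 0.717 by limma), and -0.20 without Spc1 replicate 1. Without Spc1 replicate 2 it was 1.80, with an adjusted p of 0.0132 by limma, the lowest over the alternatives.

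For the DASH complex gene dad3, also listed for Spc1K49R against empty vector, the log2 values were 0.56 and 0.32 with Spc1K49R and -2.13 and -0.06 with Spc1, against -0.23 and 0.06 with empty vector. Both Spc1K49R arrays lay above the other 4, an order held by 3.59% of all tested probe sets. On Spc1 replicate 1 dad3 had its lowest value, and 3.01% of all probe sets were lower on that array. The other Spc1 array lay between the 2 empty-vector arrays.

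With Spc1K49R dad3 was 1.44-fold higher than with empty vector, a log2 difference of 0.53 (SE 0.67, or 0.16 with only the 4 arrays compared). The means were 0.44 ± 0.17 with Spc1K49R and -0.08 ± 0.21 with empty vector (SD, n = 2 each). This is again the contrast that chose the gene, and the authors' deposited table gives a fold of 1.44 with an unadjusted p of 0.0171, the smallest of the 4 genes. Leaving out any 1 array kept the log2 difference between 0.38 and 0.67. With the 5' minus 3' covariate it was 0.23.

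For dad3 the other comparisons were not used in the choice, though they share arrays with it. Spc1K49R minus Spc1 was 1.54 (SE 0.67, 95% interval -0.19 to 3.27), with an adjusted p of 0.717 by limma. It was 0.51 without Spc1 replicate 1 and 0.47 with the 5' minus 3' covariate, so that array carried most of its size. Spc1 minus empty vector was -1.01 (SE 0.67, adjusted p 0.79 by limma) and 0.021 without Spc1 replicate 1. Without Spc1 replicate 2, with the other Spc1 array alone, the 2 differences were 2.57 and -2.04 with adjusted p-values of 0.00498 and 0.00647 by limma, the lowest of ranges that reach 1.

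**Figure D1:**
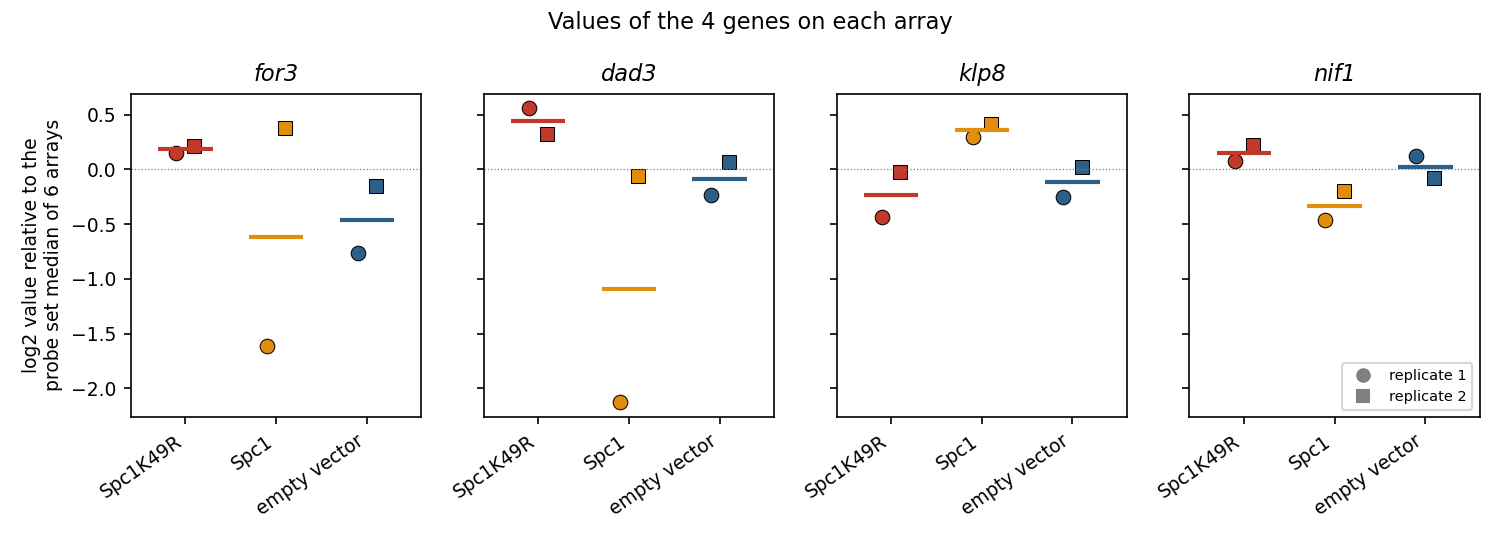
Log2 value of each gene relative to the median of its probe set over 6 arrays (vertical axis) for Spc1K49R, Spc1 and empty vector, with replicate 1 as circles, replicate 2 as squares and the group mean as a bar. Spc1 replicate 1 lies far below the other arrays for for3 and dad3, at -1.62 and -2.13, whereas klp8 and nif1 span 0.85 and 0.69 log2 units over all arrays.

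The kinesin-like gene klp8 was listed by the authors for the comparison of the 2 Spc1 forms. Its log2 values were -0.44 and -0.02 with Spc1K49R and 0.30 and 0.42 with Spc1, against -0.25 and 0.02 with empty vector. Both Spc1 arrays lay above the other 4, an order held by 6.47% of all tested probe sets. The Spc1K49R and empty-vector arrays interleaved.

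Spc1K49R minus Spc1 was -0.59 for klp8 (SE 0.21), which is 1.5-fold lower with Spc1K49R, with means of -0.23 ± 0.29 with Spc1K49R and 0.36 ± 0.08 with Spc1 (SD, n = 2 each). The authors' deposited table gives a fold of 1.47 in the same direction with an unadjusted p of 0.0441. This contrast chose the gene. It stayed between -0.80 and -0.38 when any 1 array was left out, and was -0.85 when Spc1 replicate 1 and Spc1K49R replicate 2 were left out together.

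The next values of klp8 set the empty-vector arrays, which the choosing comparison did not use, against the same Spc1 and Spc1K49R arrays, which it did. Spc1 minus empty vector was 0.47 (SE 0.21, 95% interval -0.05 to 1.0), or 1.39-fold higher, and did not pass, with an adjusted p of 0.79 by limma over all probe sets. In 14 alternatives this difference stayed between 0.34 and 0.61 and its adjusted p between 0.239 and 1. Spc1K49R minus empty vector was -0.11 (SE 0.21, 95% interval -0.64 to 0.41, adjusted p 1 by limma). Unlike for3 and dad3, klp8 had similar values on the 2 Spc1 arrays, the replicate pair with the widest gap in the 5' minus 3' difference. In the gene table klp8 overlaps cog1, whose systematic name places it on the other strand, and the files do not state which stretch or strand the probes read.

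The mitotic entry gene nif1 was listed for the same comparison, in the opposite direction. Its log2 values were 0.07 and 0.23 with Spc1K49R and -0.46 and -0.20 with Spc1, against 0.12 and -0.07 with empty vector. Both Spc1 arrays lay below the other 4, an order held by 9.93% of all tested probe sets. The Spc1K49R and empty-vector arrays overlapped.

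Spc1K49R minus Spc1 was 0.48 for nif1 (SE 0.17), which is 1.40-fold higher with Spc1K49R, with means of 0.15 ± 0.11 with Spc1K49R and -0.33 ± 0.19 with Spc1 (SD, n = 2 each). The authors' deposited table gives the same direction, with a fold of 1.42 and an unadjusted p of 0.049, the nearest of the 4 genes to the authors' threshold of 0.05. Probe sets just past that threshold are not in the tables.

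In the comparisons that did not choose it, but that share the Spc1 or the Spc1K49R arrays with the one that did, nif1 differed by -0.36 between Spc1 and empty vector (SE 0.17, 95% interval -0.80 to 0.08), or 1.28-fold lower with Spc1. The adjusted p was 0.79 by limma. The difference was -0.23 without Spc1 replicate 1 and -0.26 without empty vector replicate 1, and it was -0.13 without both. Spc1K49R minus empty vector was 0.13 (SE 0.17, 95% interval -0.31 to 0.57, adjusted p 1 by limma).

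**Figure D2:**
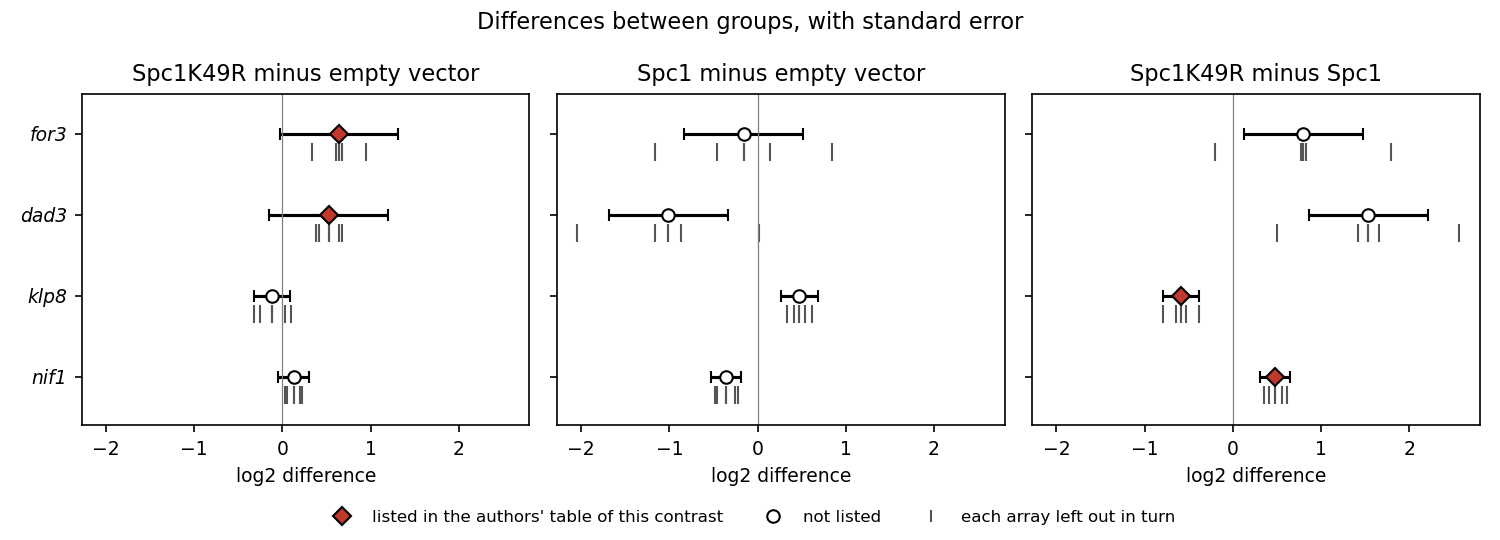
Log2 difference (horizontal axis) of each gene in the 3 comparisons, with its standard error from limma as bars. Filled diamonds mark the comparison in whose deposited table the gene is listed, open circles the others, and short ticks the value with each array left out in turn. For for3 and dad3 the ticks of both comparisons with Spc1 spread from the value without Spc1 replicate 1 to that without Spc1 replicate 2. In the comparison that chose it each gene has its ticks on 1 side of 0, as groups that do not overlap require.

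The 4 genes are set out in 2 pairs, which are those of the comparisons that chose them, so the pairing is not a result. In for3 and dad3 Spc1K49R lay above empty vector and the Spc1 arrays disagreed with each other. In klp8 and nif1 the Spc1 arrays lay apart from all others, upwards for klp8 and downwards for nif1. Over the 6 arrays the root mean square difference was 0.40 log2 units between for3 and dad3 and 0.49 between klp8 and nif1. Across the pairs it was 0.64 for for3 and nif1 and 0.73 for dad3 and nif1. It was 0.85 for for3 and klp8 and 1.10 for dad3 and klp8. The signs of klp8 and nif1 were opposite on every array. The same comparison chose them in opposite directions, so this is given as a description. Signs near the median carry little, as for klp8 at -0.02 on Spc1K49R replicate 2 and 0.02 on empty vector replicate 2.

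The difference klp8 minus nif1 within an array was -0.51 and -0.25 with Spc1K49R and 0.76 and 0.62 with Spc1, against -0.38 and 0.10 with empty vector. The Spc1 arrays were among those that chose both genes, so their place above the other 4 is given as a description. The difference for3 minus dad3, set out after the values were seen, was -0.41 and -0.11 with Spc1K49R and 0.51 and 0.45 with Spc1, against -0.53 and -0.22 with empty vector. Its 2 Spc1 values were close to each other although for3 and dad3 each differed by about 2 log2 units between the Spc1 arrays.

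The values of the genes can be set beside those of act1, 1 of the 6 control genes, on the 2 arrays with the lowest 5' minus 3' difference. Averaged over the 6 that difference was -1.53 on Spc1 replicate 1, and act1 by itself had a larger gap there. The other control genes are not set out. On Spc1 replicate 1, for3 at -1.62 and dad3 at -2.13 stood beside -2.66 for the 5' end, -1.55 for the middle and -0.37 for the 3' end of the actin gene act1. On empty vector replicate 1 the 5' end of act1 was at -0.60 and for3 at -0.76, with dad3 at -0.23. On these 2 arrays klp8 was at 0.30 and -0.25, and nif1 at -0.46 and 0.12, with no common direction. The residual SD over the groups was 0.85 for for3 and 0.86 for dad3, larger than in 95.01% and 95.1% of all probe sets. For klp8 it was 0.21 and for nif1 0.15, larger than in 48.2% and 30.9%. The part of RNA state in these values was not tested beyond the covariate and the arrays left out.

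**Figure D3:**
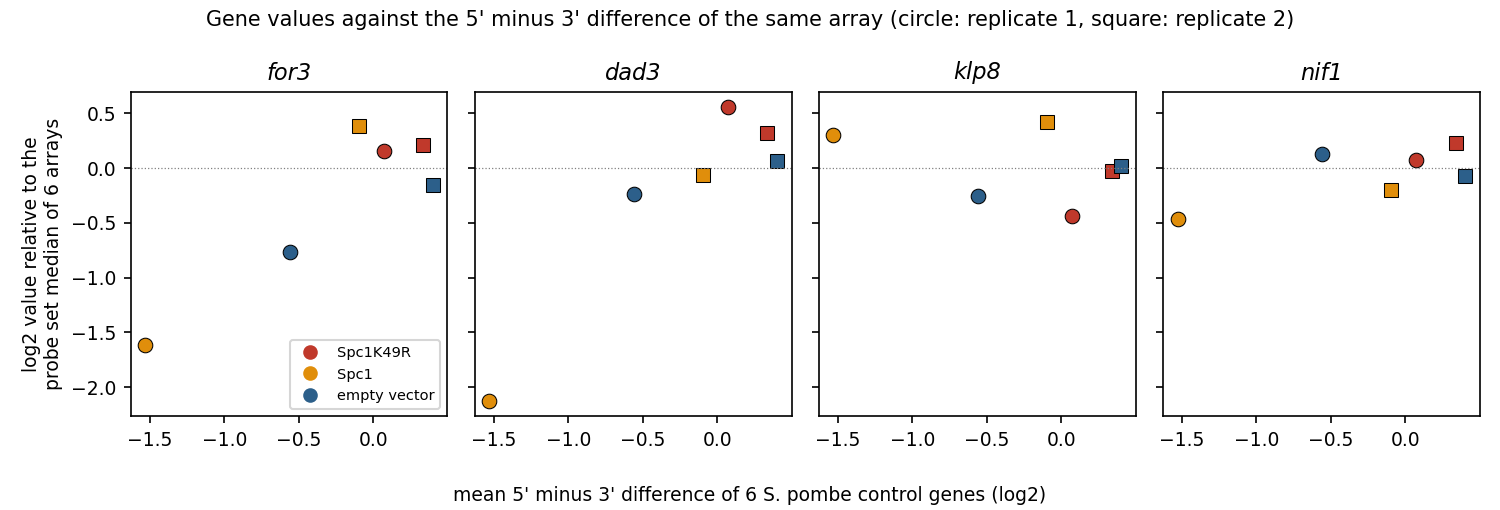
Log2 value of each gene (vertical axis) against the mean 5' minus 3' difference of 6 S. pombe control genes on the same array (horizontal axis, log2), with 1 point per array, coloured by group. The lowest value of for3 and of dad3 is on Spc1 replicate 1, where the control difference is -1.53, while klp8 is at 0.30 there.

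With limma on all 6 arrays no gene of the 4 passed in a comparison that had not chosen it, and in each of the 3 comparisons the count past an adjusted p of 0.05 was 0 of 8960 probe sets (0%). Without Spc1 replicate 2, which leaves Spc1 replicate 1 alone in its group, 2968 passed for Spc1 minus empty vector and 3234 for Spc1K49R minus Spc1. At an unadjusted p under 0.05 the share of probe sets was 1.21% for Spc1 against empty vector, 0.0893% for Spc1K49R against empty vector and 1.02% for Spc1K49R against Spc1. Each share was below the 0.05 that such a threshold would pass with no difference at all. The model was thus cautious on these arrays, and a count of 0 does not show that the groups were alike. No exact permutation p is given, because 2 arrays against 2 allow a two-sided p of 0.333 at the least.

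Groups of 2 arrays that do not overlap were common. Both Spc1K49R arrays lay above both empty-vector arrays in 12.0% of probe sets, which is the order of for3 and dad3, and nothing is read from it since it is the contrast that chose them. Both Spc1 arrays lay above both empty-vector arrays in 10.5% of probe sets, the order of klp8, and below them in 14.4%, the order of nif1. Both Spc1K49R arrays lay above both Spc1 arrays in 21.6%, the order of dad3 and nif1, and below in 14.5%, the order of klp8.

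By size the genes differed in their place among all probe sets in the comparison that chose each. A difference as high as that of for3 in Spc1K49R minus empty vector was found in 0.134% of probe sets. One as high as that of dad3 was found there in 0.279%. In Spc1K49R minus Spc1 a difference as low as that of klp8 was found in 2.91% of probe sets. One as high as that of nif1 was found there in 15.9%, so its size was not rare. These shares are given as a description of how the genes were chosen. In Spc1 minus empty vector, where the median of all probe sets was -0.05, a difference as high as that of klp8 was found in 3.86% and one as low as that of nif1 in 20.6%. The spread of all probe sets was wider in both comparisons with the Spc1 arrays. Its 5th and 95th percentiles were -0.23 and 0.24 for Spc1K49R minus empty vector, -0.87 and 0.42 for Spc1 minus empty vector, and -0.48 and 0.94 for Spc1K49R minus Spc1.

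**Figure D4:**
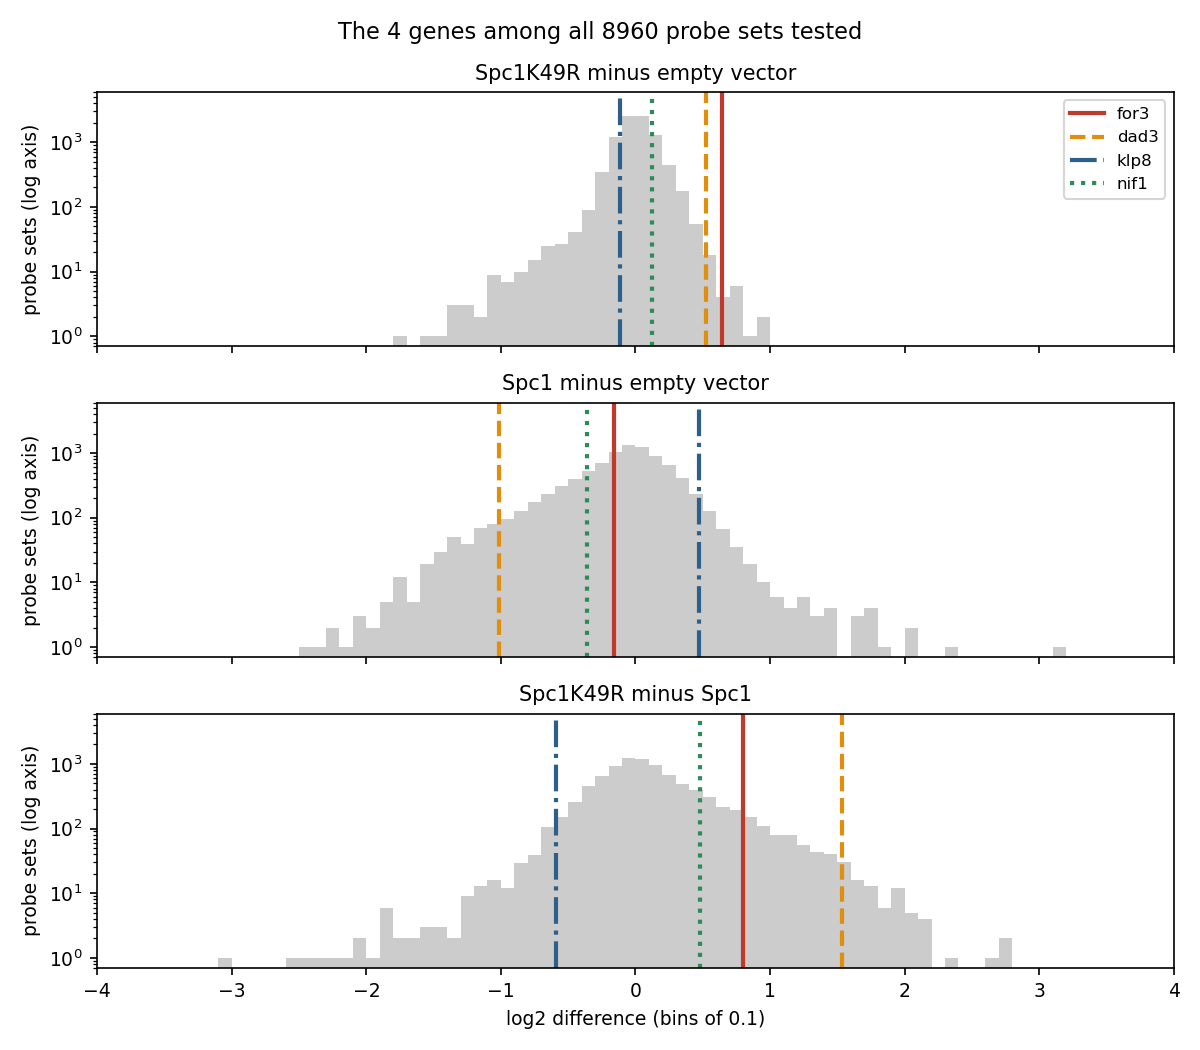
Number of probe sets (vertical axis, log scale) by log2 difference (horizontal axis, bins of 0.1) in the 3 comparisons, with the 4 genes as vertical lines. In Spc1K49R minus empty vector for3 at 0.64 and dad3 at 0.53 lie in the upper tail, and in Spc1 minus empty vector klp8 at 0.47 lies just past the 95th percentile of 0.42 and nif1 at -0.36 within the bulk.

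Few other genes of the same machinery could be read. Of 39 genes listed for actin cables and formins only for3 had a named probe set, of 34 for the DASH complex and outer kinetochore only dad3, of 27 for kinesins and microtubules only klp8, and of 29 for mitotic entry only nif1. Of 15 genes of the Spc1 pathway only sty1 was named. None passed the test in a comparison that had not chosen it, and the other genes of these lists were not analysed here. The exception by another route is act1, the actin gene, through its control probe sets given above. The 2 nearest protein-coding genes on either side of each of the 4 were not named either. They include alp14, a microtubule polymerase gene close to for3, mek1, a meiotic checkpoint kinase gene next to dad3, and srw1, an activator of cyclin destruction also known as ste9, next to klp8.

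The deposited annotation gives for3, dad3 and nif1 the terms cell cycle and cell division, shared by 3 of the 68 other S. pombe probe sets with 1 named gene. These 3 were skp1, gsk3 and pfs2, all selected by the study on these arrays and set out here after their values were seen. The kinase gene gsk3 was at -0.03 and 0.03 with Spc1K49R and -1.38 and -0.06 with Spc1, against 0.28 and 0.23 with empty vector. The gene pfs2, encoding a WD repeat protein, was at 0.18 and 0.08 with Spc1K49R and -0.61 and 0.41 with Spc1, against -0.08 and -0.16 with empty vector. As in for3, 1 Spc1 array was the lowest and the other the highest of the 6. How common this order is among all probe sets was not counted, so nothing is read from it. Only klp8 and nif1 among the 4 have the terms cell tip and cell division site. Only dad3 and klp8 have the term microtubule, which none of the 68 others had. Terms naming the spindle were also given to rec8, spk1, mug62 and SPBC13A2.01c, whose values are not listed here.

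The named S. pombe probe sets nearest to each gene over the 6 arrays were found by the root mean square difference. For nif1 they were rev7, a subunit of DNA polymerase zeta, at 0.107 log2 units, SPBC1604.09c, a predicted exoribonuclease, at 0.108, and skp1, a subunit of the SCF ubiquitin ligase, at 0.117. The gene skp1 had 0.15 and 0.13 with Spc1K49R and -0.42 and -0.19 with Spc1, against -0.08 and 0.08 with empty vector. Both Spc1 arrays were lower than the other 4 in skp1 as in nif1, an order held by 9.93% of all tested probe sets. The same values picked skp1 as near to nif1, so the shared order is given as a description. Among all tested probe sets 39 were nearer to nif1 than rev7 was, so the likeness is not rare on these arrays.

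For klp8 the nearest were SPAC3H1.02c, a metallopeptidase gene, at 0.207, SPBC800.11, a predicted nucleoside hydrolase gene, at 0.232, and mug62, a predicted AMP-binding enzyme gene, at 0.234. For for3 they were SPBC685.08 at 0.242, SPCP1E11.10, which encodes an ankyrin repeat protein, at 0.264, and SPAC683.02c, which encodes a zinc finger protein, at 0.281. For dad3 they were SPAC683.02c at 0.316, git11, the gamma subunit gene of the glucose-sensing G protein, at 0.319, and SPBC685.08 at 0.328. The shared neighbours of for3 and dad3 had low values on Spc1 replicate 1, at -1.45 for SPAC683.02c and -1.49 for SPBC685.08. Both for3 and dad3 lie far below their medians there, so a near pattern by this measure has to be low there too. Between 58 and 303 of all tested probe sets were nearer to for3 or dad3 than these named ones, and between 79 and 273 were nearer to klp8 than its own.

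**Figure D5:**
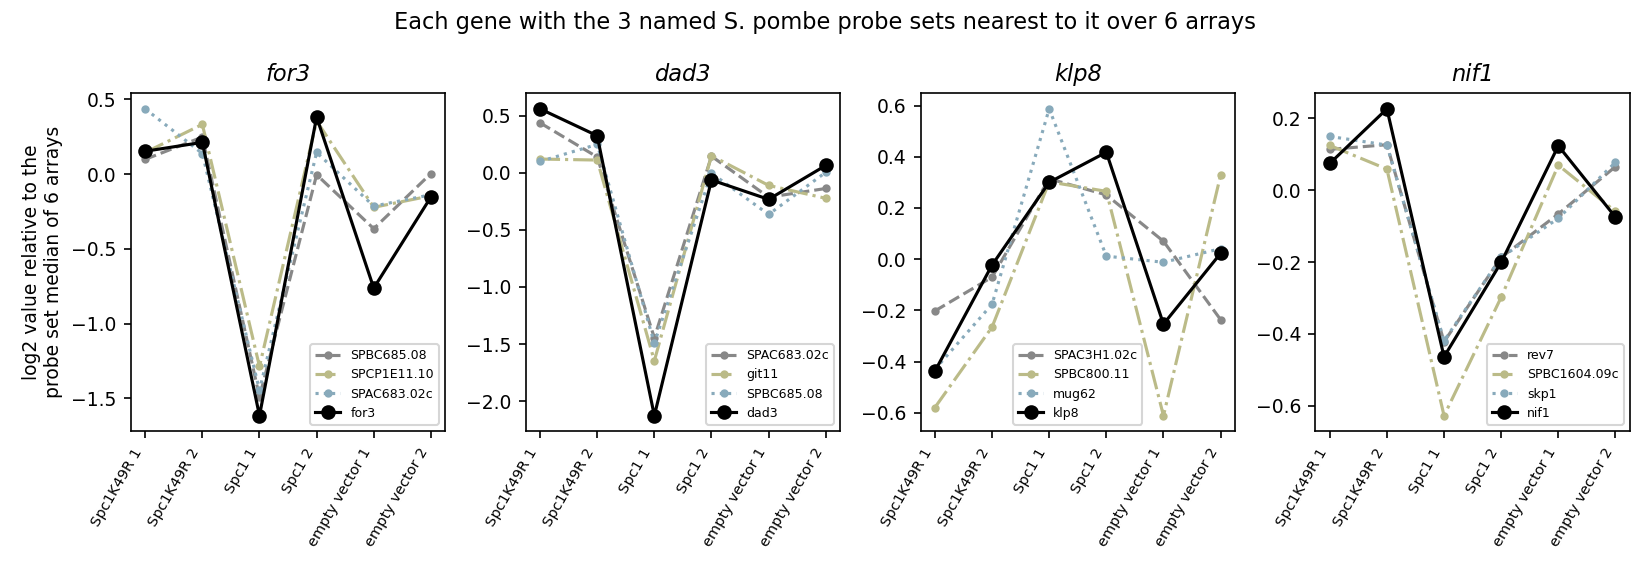
Log2 value relative to the probe set median (vertical axis) on each of the 6 arrays for every gene (black) and the 3 named S. pombe probe sets nearest to it by root mean square difference. The neighbours of for3 and dad3 share the low value on Spc1 replicate 1, and those of nif1 lie at root mean square differences of 0.107 to 0.117 log2 units from it.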

How the data were processed

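The authors' deposited value table holds normalized log2 values; which method the authors used is not stated in the labels. In all 9133 probe sets the median of the 6 arrays is 0, so no level or dim-probe filter is possible. Another deposit of the authors, 3 tables of comparisons, lists a fold ratio, a log2 fold and an unadjusted p-value for each selected probe set. Per the file headers, these came from a moderated test at 0.05 with no correction, after a filter on raw signal (percentiles 10 to 100). Mutant B of these tables was taken as Spc1, mutant C as Spc1K49R and wild type as empty vector from their fold changes, which correlate at 0.974 to 0.999 across listed probe sets; 6 columns of group means were not used. Names come from these tables alone. A gene table of assembly ASM294v3 served for symbols and neighbours, and no coordinates are printed, as the labels state no build.

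One limma 3.58.1 model (R 4.3.3, lmFit and eBayes, two-sided) with a mean per group was fitted to 8960 probe sets, 173 controls left out, with Benjamini-Hochberg adjustment per comparison and a threshold of 0.05. It was run on simulated data in which a probe set had the same spread on every array. The real arrays had SDs from 0.11 to 0.82, so that run does not show how the model behaves with such unequal arrays. Probe sets of both yeast species on the array were tested together. The 4 genes and the gene lists were chosen with earlier results of these data known. The rule for naming took the 4 genes, sty1, every list gene with a named probe set, and the 3 nearest named patterns per gene. Alternatives covered scaling, variances, array weights, the replicate number, a 5' minus 3' covariate and arrays left out. Leaving out Spc1 replicate 1 with empty vector replicate 1 was added after seeing the data. With 1 array left in a group, that array was assumed to vary like the others.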

Additional observations from a re-analysis of the deposited data

Results flagged for a closer look

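For nif1 both Spc1K49R arrays lay above the empty-vector mean of 0.02, at 0.07 and 0.23, and both Spc1 arrays below it, at -0.46 and -0.20. The log2 difference Spc1K49R minus Spc1 was 0.483. This difference chose the gene, so no test of it is given, and 1 empty-vector array, at 0.12, lay above Spc1K49R replicate 1.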

How the results depend on the processing

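In the comparison that chose each gene no alternative changed the sign. For all 4 genes the groups compared there did not overlap, so leaving out arrays could not have changed it. Robust variances, array weights and the replicate block left the estimate itself as it was. The constant sign is therefore a description and no sign of reliability. With the 5' minus 3' covariate for3 was at 0.32 and dad3 at 0.23, both for Spc1K49R minus empty vector. Without Spc1 replicate 1 and Spc1K49R replicate 2, Spc1K49R minus Spc1 was -0.85 for klp8 and 0.28 for nif1. With any 1 array left out the 4 differences ranged over 0.34 to 0.95 for for3, 0.38 to 0.67 for dad3, -0.80 to -0.38 for klp8 and 0.35 to 0.61 for nif1.

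Elsewhere signs turned. For for3, Spc1 minus empty vector was 0.68 with the covariate, 0.15 without empty vector replicate 2, 0.84 without Spc1 replicate 1 alone or with Spc1K49R replicate 2, and 0.54 without replicate 1 of Spc1 and of empty vector. It ranged from -1.16 to 0.84 with 1 array left out. For for3, Spc1K49R minus Spc1 was -0.36 with the covariate, -0.20 without Spc1 replicate 1 alone or with empty vector replicate 1, and -0.23 without Spc1 replicate 1 and Spc1K49R replicate 2, and ranged from -0.20 to 1.80. For dad3, Spc1 minus empty vector was 0.021 without Spc1 replicate 1, alone or with Spc1K49R replicate 2, and ranged from -2.04 to 0.021. For klp8, Spc1K49R minus empty vector ranged from -0.32 to 0.092, being 0.023 without empty vector replicate 2 and 0.092 without Spc1K49R replicate 1. The cause was not tested.

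At an unadjusted p under 0.05 limma gave 108 probe sets in Spc1 minus empty vector, 8 in Spc1K49R minus empty vector and 91 between the forms. Without Spc1 replicate 2 the count past the adjusted threshold was 2968 for Spc1 minus empty vector and 3234 for Spc1K49R minus Spc1. It was 0 in the other settings run, so it ranged from 0 to 2968, 0 to 0 and 0 to 3234 with 1 array left out. In that setting for3 had an adjusted p by limma of 0.0377 and 0.0132 and dad3 of 0.00647 and 0.00498 in these 2 comparisons, with Spc1 replicate 1 standing alone. Over all alternatives those p-values ranged up to 1.

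With the replicate number as a block 0 probe sets passed in each comparison, and the differences of the 4 genes were the same. Their standard errors changed, from 0.67 to 0.50 for for3, 0.67 to 0.59 for dad3, 0.21 to 0.17 for klp8 and 0.17 to 0.19 for nif1. Deviations of replicate 1 correlated at 0.07 between Spc1K49R and empty vector, 0.47 between Spc1 and empty vector and 0.10 between Spc1K49R and Spc1. Replicate 1 of Spc1 and of empty vector thus varied together in part, and both had low 5' minus 3' differences, at -1.53 and -0.56. Why was not tested. The main model did not take replicate numbers as pairs.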
